A study of Ostrinia furnacalis with 30 samples.

Results

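The adult of the Asian corn borer, Ostrinia furnacalis, a moth whose larvae bore into maize, was compared with the embryo, the 1st, 3rd and 5th instar larvae and the pupa by RNA sequencing of whole insects. The adult was represented by 3 of the 18 whole-insect libraries and each of the other 5 stages by 3, in a series of 30 libraries that also holds 12 libraries of 4 tissues of 3rd instar larvae. All insects were wild type, and each library came from pooled animals. Per the study's methods, a sample of embryos or of 1st instar larvae pooled more animals than a sample of any other stage. Embryos were taken within hours of egg laying, adults had been fed sucrose solution, and pupae and adults were mixed from equal parts of females and males, so that male and female expression could not be separated. The labels do not say that the 3 libraries of a stage came from separate rearings, and p-values therefore measure only the spread between these libraries. A gene was tested when it reached 1 FPKM (fragments per kilobase of gene length, relative to the size of the library) in at least 3 of the 18 libraries, which left 14729 of 20852 gene models. It was called in a comparison at an adjusted p under 0.05 in limma when the 2 stages also differed by 1 or more on the log2(FPKM + 1) scale. It is described as higher or lower in the adult only where it was called in that direction against all 5 other stages.

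The adult moth lives to mate and lay eggs. Its compound eyes detect light through opsins, its antennae carry odorant-binding and pheromone-binding proteins that deliver odour molecules to receptors, and its thorax is filled with flight muscle. In the female the fat body makes vitellogenin, the yolk protein precursor, and the follicle cells of the ovary lay down the vitelline membrane and the chorion, the inner and outer layers of the eggshell. The compound eyes, antennae, flight muscle and ovary are not complete in a larva, while the fat body is already present there.

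The adult libraries held 14330440 to 15132252 fragments each and resembled each other more than any other stage, with Pearson's r of 0.948 to 0.965 across genes among themselves and at most 0.704 with any library of another stage. The second principal component of the 18 libraries, with 23.8% of the variance, set the adults apart, at -136 to -149. The adult label was checked against marker lists. The summed level of 24 light-sensing genes was 319 to 1491 FPKM in the adult and 64.6 to 397 in the other 15 libraries, with adult replicate 1 inside the 1st instar range of 303 to 397. That of 19 eggshell and yolk genes was 2315 to 4490 FPKM against 13.8 to 314. The 3 silk protein genes, which mark the larva, summed to 42.4 to 109 FPKM in the adult, which overlaps 47.8 to 170 in the pupa, to at least 256 in every larval library and to at most 0.0900 in the embryo. The 65 sperm and testis genes summed to 497 to 714 FPKM in the adult and 521 to 704 in the pupa, ranges that overlap. Of 75 chemoreceptor gene models only 7 reached the level needed for a test. These summed to 25.7 to 55.2 FPKM in the adult and 47.5 to 58.9 in the 5th instar. The 18 odorant and pheromone carriers summed to 1059 to 2190 FPKM in the adult and 1280 to 6074 in the 3rd instar. Neither sum set the adult apart.

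The 3 adult libraries differed from each other in 2 groups of genes that touch the results below. The first is the chorion. The 7 chorion class genes above 5 FPKM in any adult library lie on 1 scaffold (NW_021135346.1, bases 356630 to 401986) and together gave 10264 fragments in adult replicate 1, 9885 in replicate 2 and 1 in replicate 3. The second is the sensory genes. Opsin-1 had 191, 974 and 1090.4 FPKM in replicates 1, 2 and 3, and a pheromone-binding protein-like gene (LOC114363557) had 12.1, 112 and 37.3, so replicate 1 was the lowest for both. Counted over all tested genes, 15 were at least 16 times lower in replicate 3 than in both other adult libraries with at least 10 FPKM there, 9 in replicate 1 and 2 in replicate 2. The share of females, or of animals carrying mature eggs, in each pool was not measured here.

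Between the adult and each other stage, many genes were called. Against the embryo 4357 genes were higher in the adult (29.6% of those tested) and 3069 lower (20.8%). Against the 1st instar 2782 were higher (18.9%) and 2831 lower (19.2%), against the 3rd instar 2759 (18.7%) and 2822 (19.2%), against the 5th instar 2542 (17.3%) and 3162 (21.5%), and against the pupa 2719 (18.5%) and 3152 (21.4%). All 5 comparisons share the 3 adult libraries. The genes called in 1 direction against all 5 stages came to 813 higher (5.52%) and 456 lower (3.1%). With values scaled by the fragments of each library in place of the deposited scaling, the genes higher against the embryo went from 58.7% to 33.7% of those called, against the pupa from 46.3% to 20.7% and against the 3rd instar from 49.4% to 64.7%. That scaling moved the median log2 fold change of all genes by -0.66, -0.52 and 0.21 in these comparisons.

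**Figure D1:**
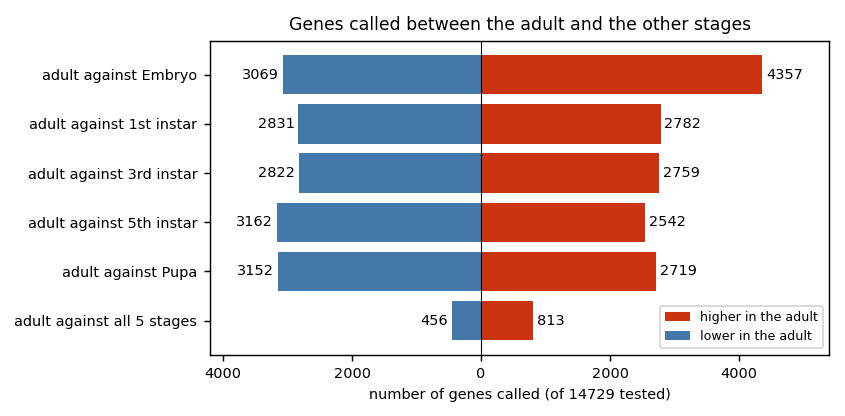
Number of genes called higher (right, red) and lower (left, blue) in the adult against each other stage and against all 5 together, of 14729 genes tested; the horizontal axis counts genes. Each single comparison called between 2542 and 4357 genes in a direction, and 813 and 456 were called in 1 direction in all 5.

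The 2 sets differed in size of change and in what they hold. The smallest of the 5 log2 fold changes had a median of 2.53 among the higher genes and -1.31 among the lower, and reached 3 or more in size for 355 higher genes and for 0 lower genes. A fall cannot exceed log2(FPKM + 1) in the other stage, and the lower genes had a median of 6.63 FPKM in the other libraries. The 0 is therefore in part fixed by the scale. Which set was larger also depended on it: with 0.1 in place of 1 added to FPKM, 825 genes were higher and 1129 lower. In 762 of the 813 higher genes all 3 adult libraries lay above all 15 others, as they did in 9.43% of all genes tested, and in 424 of the 456 lower genes they lay below all 15, against 8.05%. Of the higher genes, 375 were below 1 FPKM in all 15 other libraries, and 66 of these had no fragment there. Such genes passed the filter only through the 3 adult libraries. That their adult values lay above all others was therefore fixed by the filter. All 813 higher genes together made up 11.2% to 13.4% of the fragments of an adult library and 0.439% to 1.64% elsewhere. Fewer of them carry an informative gene description: 343 of 813, against 405 of 456 of the lower genes. Among the higher genes 278 are annotated but uncharacterized and 192 are gene models the authors added, while 37 are serine proteases by description, which are not described further.

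The 15 described genes with the largest smallest fold change in the adult, from 11.44 down to 8.05 on the log2 scale, had descriptions of many kinds. By description they include a vitelline membrane protein, vitellogenin, opsin-1, a troponin C and a lipase. Both cysteine proteinases described below, a homeobox protein ESX1-like gene and a tryptase inhibitor are also among them, beside the genes that follow. The glycine, alanine and asparagine-rich protein-like gene LOC114365811 had 2604, 2722 and 3469 FPKM in the 3 adult libraries and at most 0.156 in the 15 others, with a smallest log2 fold change of 11.44 ± 0.16 (SE, against the 3rd instar). Its neighbour, the spidroin-1-like gene LOC114365812, named after a spider silk protein, had 508, 627 and 945 FPKM and at most 0.143 elsewhere. On the other side of it lies LOC114365810, described only as an uncharacterized PE-PGRS family protein, with 4603, 3422 and 6127 FPKM against at most 0.233. These are 3 of 5 consecutive annotated genes higher in the adult on scaffold NW_021137891.1 between bases 18569 and 53754, in the build of the deposited table. The groups did not overlap for any of them, and the other stages were near 0.

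A second such place is on scaffold NW_021131985.1, where the vegetative cell wall protein gp1-like gene LOC114353613 had 2767, 2370.4 and 2076 FPKM against at most 0.414 in the other stages, and the shematrin-like protein 2 gene LOC114353614 had 391, 1578 and 2014. Shematrins are glycine-rich proteins known from the shells of pearl oysters, and the name rests on similarity alone. The shematrin-like gene was lowest in adult replicate 1, and there still lay above all 15 others, as the filter required, since these were at most 0.158. The uncharacterized gene LOC114356412, annotated as a long non-coding RNA, had 5699, 4743 and 6192 FPKM, at most 2.27 elsewhere, and lies beside the homeobox protein ESX1-like gene LOC114356424, which had 542, 330.2 and 372 FPKM in the adult and no fragment in the other 15 libraries. Across all annotated genes, 19% of the adjacent tested neighbours of a higher gene were higher themselves, where 4.68% of tested annotated genes were, and 3.65% of the neighbours of a lower gene were lower, where 3.35% were. Neighbouring copies of one gene family can share reads, and how such reads were assigned in this table is not known.

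**Figure D2:**
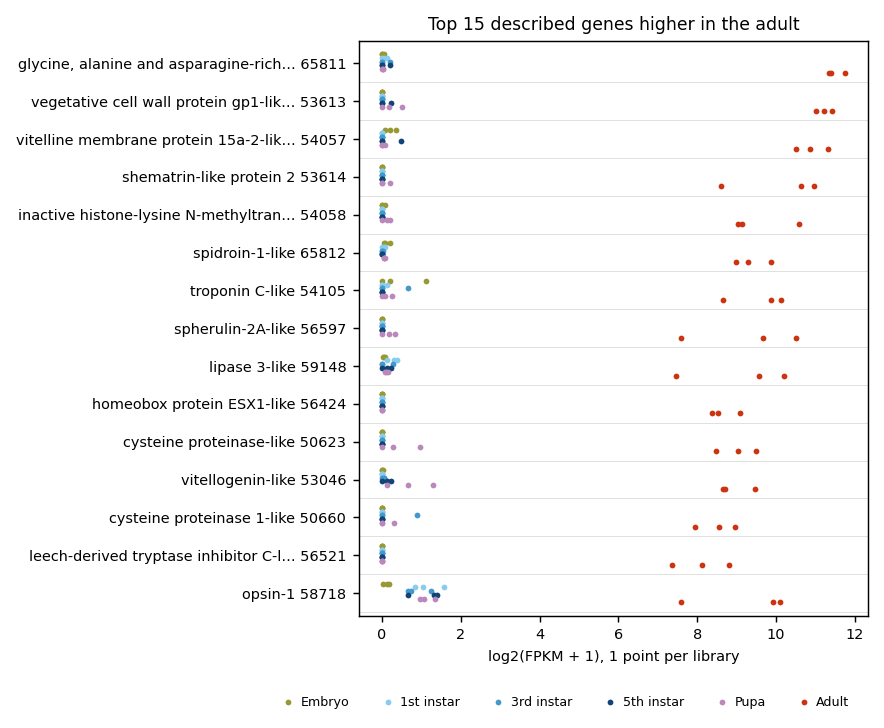
Log2(FPKM + 1) of the 15 described genes with the largest smallest fold change among those higher in the adult, 1 point per library, coloured by stage, with the last 5 digits of the gene identifier. The adult points lie between 7 and 12 while the other 15 libraries lie below 2 for every gene.

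Eggshell and yolk genes were among the most raised groups. Of 19 tested, 6 were higher in the adult than in all 5 other stages, 31.6% against 5.52% of all genes, and 2 were by limma-voom on the recovered fragments. Genes high only in the adult, such as the vitelline membrane and vitellogenin genes below, passed the filter only through the adult libraries. Shares called higher, in this list, in the lists below and in all genes, are therefore in part fixed by the filter. The vitelline membrane protein 15a-2-like gene LOC114354057 had 2566, 1465 and 1868 FPKM in the adult and at most 0.406 in the other libraries, with a smallest log2 fold change of 10.69 ± 0.20 (SE, against the embryo). The next gene, LOC114354058, described as an inactive histone-lysine N-methyltransferase 2E-like protein, had 1539, 527 and 567 FPKM and at most 0.150 elsewhere. Both lie within the span of LOC114354059, and reads of overlapping genes cannot be told apart without strand. Vitellogenin-like LOC114353046 had 714, 417 and 404 FPKM, with a highest value of 1.46 among the others, in a pupal library, and a smallest log2 fold change of 8.25 ± 0.26 (SE, against the pupa). The vitelline membrane and vitellogenin genes were high in all 3 adult libraries, replicate 3 included.

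The other 4 eggshell genes were chorion class genes, and there the adult libraries disagreed. LOC114360629, a chorion class CB protein M5H4-like gene, had 250.2, 299 and 0 FPKM in replicates 1, 2 and 3, and 0.581, 1.75 and 0.512 in the pupal libraries. Of the 7 chorion class genes above 5 FPKM in an adult library, 6 had no fragment in replicate 3 and the other had 1, with 24.7 to 299 FPKM in replicates 1 and 2. In counts of fragments, 0 allows up to 3. Without adult replicate 3 the number of the 7 called rose from 4 to 6, and without replicate 1 or without replicate 2 it fell to 0. In the pupa LOC114360621, a chorion class CA protein ERA.1-like gene, had 34.1, 203 and 136 FPKM, close to its 240 and 113 in adult replicates 1 and 2, and it was not called. Vitellogenin receptor gene LOC114364367, through which the oocyte takes up yolk, had 20.6, 18.6 and 13.2 FPKM in the adult and a mean of 74.4 in the embryo.

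The germline genes followed another pattern. Of 18 tested, 1 was higher than in all 5 stages (5.56%, against 5.52% of all genes) and 2 were lower (11.1%, against 3.1%), while 13 were lower in the adult than in the embryo, where 20.8% of all genes were. Among the 2 lower is the bicaudal D-related protein homolog gene LOC114352563, listed by its description and also among the homeobox and segmentation factors. It had a mean of 23.2 FPKM in the embryo and 155 in the larval silk gland. Nanos-like LOC114357926, a translational repressor of germ cells and of the posterior of the embryo in Drosophila, had 47.3, 41.2 and 30.2 FPKM in the adult, a mean of 16.1 in the embryo and at most 0.612 as a mean elsewhere. Its difference from the embryo, 1.26 on the log2 scale, fell to 0.04 (adjusted p = 0.92, limma) with values scaled by the fragments. The vasa helicase gene LOC114357405, a germ cell marker, had 76.9, 65.8 and 38.9 FPKM in the adult and a mean of 55.6 in the embryo, and was not called against it. Of 65 sperm and testis genes 0 were called against all 5 stages by limma in either direction, 0 at an unadjusted p under 0.05 with the same limit on the fold change, and 1 was lower by limma-voom. Stage by stage, 34 were higher than in the embryo (29.6% of all genes were), 27 than in the 1st instar (18.9%), 31 than in the 3rd instar (18.7%), 7 than in the 5th instar (17.3%) and 2 than in the pupa (18.5%). The testis-specific serine/threonine-protein kinase gene LOC114351014 shows this order, with 37.95, 52.6 and 68.6 FPKM in the adult and means of 52.6 in the pupa, 20.2 in the 5th instar, 2.22 in the 3rd instar and under 0.05 before. In whole insects, fewer cells of a type and less RNA per cell cannot be told apart.

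**Figure D3:**
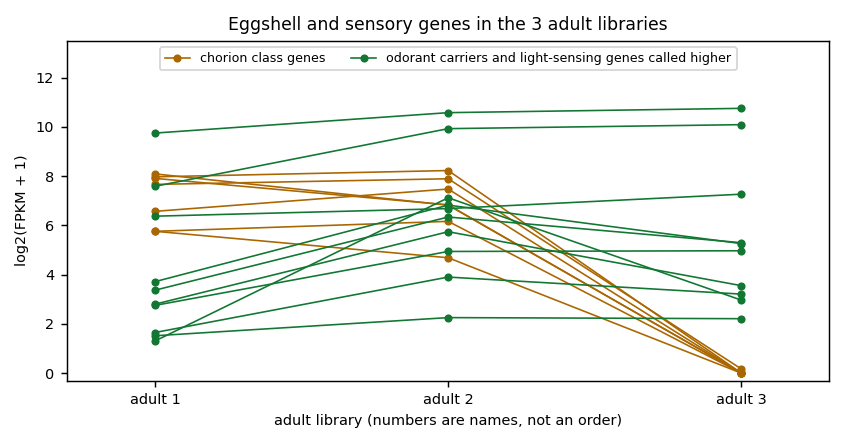
Log2(FPKM + 1) of 7 chorion class genes (brown) and of the odorant carriers and light-sensing genes called higher in the adult (green) in each adult library; lines join 1 gene and replicates have no order. Chorion genes lie between 4 and 9 in replicates 1 and 2 and at or near 0 in replicate 3, while most sensory genes are lowest in replicate 1.

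Genes of the antenna and the eye rose in part. Of 18 odorant and pheromone carriers tested, 7 were higher in the adult than in all 5 other stages (38.9%, against 5.52% of all genes). The filter fixed part of this share, since LOC114363557 and LOC114349856 passed it only through the adult libraries. The gene LOC114363432, described as a putative odorant-binding protein A10, had 860.1, 1529 and 1726 FPKM in the adult and 0.0983 to 11.7 in the other libraries. Its smallest log2 fold change was 6.87 ± 0.39 (SE, against the pupa). The pheromone-binding protein-like gene LOC114363557 had 12.1, 112 and 37.3 FPKM against at most 0.794, and the general odorant-binding protein 83a-like gene LOC114349856 had 9.33, 80.1 and 38.3 against at most 0.477. Replicate 1 was the lowest and replicate 2 the highest for both, yet every adult library was above the 15 others, as the filter required here. The family did not move as a whole: 8 of the 18 were lower in the adult than in the 1st instar, where 19.2% of all genes were. General odorant-binding protein 56d-like LOC114351082 had 44.3, 78.7 and 41.5 FPKM in the adult and means of 1296 in the pupa and 471 in the 5th instar, and an ejaculatory bulb-specific protein 3-like gene (LOC114363416), a member of the chemosensory proteins, had 14.3, 19.7 and 40.7 FPKM in the adult and a mean of 2854 in the 3rd instar. Of the 7 chemoreceptor genes that passed the filter, odorant receptor 22b-like LOC114365317 was called, at 2.54, 1.32 and 1.74 FPKM, and its call was lost without adult replicate 1, where the smallest log2 fold change was 0.88, and without 3rd instar replicate 2 (0.86) or 3 (0.82).

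Of 24 light-sensing genes, 3 were higher (12.5%, against 5.52% of all genes) and 2 lower (8.33%, against 3.1%) in the adult than in all 5 stages. Opsin-1 (LOC114358718), the light receptor protein of photoreceptors, had 191, 974 and 1090.4 FPKM in the adult and 0.0160 to 1.97 in the others, with a smallest log2 fold change of 8.05 ± 0.48 (SE, against the 1st instar). Opsin-3 (LOC114363722) had 5.73, 29.7 and 30.4 FPKM and at most 7.22 elsewhere. Its call was lost without adult replicate 2 or 3 (adjusted p = 0.15 in both, limma) and without 1st instar replicate 1 (0.094) or 2 (0.082). The transient receptor potential protein-like gene LOC114365971, an ion channel of the visual cascade in Drosophila, had 1.87, 3.78 and 3.63 FPKM against at most 1.20. In the opposite direction, chaoptin (LOC114351403), a photoreceptor cell surface protein in Drosophila, had 0.466, 0.0998 and 0.0237 FPKM and 1.56 to 6.35 in the others. The other lower gene, LOC114355308, is in the list by its description as a rod phosphodiesterase subunit delta. It had 1.11, 1.15 and 0.217 FPKM in the adult, with means of 26.9 in the embryo and 26.6 in the larval hemolymph. An opsin-1-like gene, LOC114361770, was a gene of the larva instead, with 0, 0.107 and 0 FPKM in the adult and a mean of 44.4 in the 1st instar.

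Sarcomere genes were mostly higher in the adult than in the embryo, while against the larvae more were lower than higher. Of 46 tested, 6 were higher than in all 5 stages (13.04%, against 5.52% of all genes). Against the embryo 39 were higher (29.6% of all genes were) and 3 lower (20.8%), with a median log2 fold change of 5.31. Against the pupa 12 were higher (18.5% of all genes were) and 2 lower (21.4%). In contrast, 20, 23 and 25 were lower than in the 1st, 3rd and 5th instar, where 19.2%, 19.2% and 21.5% of all genes were. In the same comparisons 8, 9 and 9 were higher, shares close to the 18.9%, 18.7% and 17.3% of all genes. Troponin C is the calcium sensor of the thin filament. The troponin C-like gene LOC114354105 had 401, 1109.7 and 936 FPKM in the adult and at most 1.16 elsewhere, and LOC114354116 on the same scaffold had 2094, 1994 and 1465 against means of 8.59 to 207 in the larvae and the pupa. Another gene, troponin C LOC114359674, went the other way, at 442, 208 and 388 FPKM in the adult and a mean of 3286 in the 3rd instar. Actin shows the same contrast: muscle-type A2 (LOC114366695) had 547, 645 and 1019.9 FPKM in the adult and means of 3.80 to 103 in larvae and pupa, while actin, muscle (LOC114358245) had 1738, 1493 and 2276 and a mean of 37108 in the 3rd instar. Titin-like LOC114350359, of the elastic filaments, rose to 48.4, 64.7 and 95.6 FPKM from at most 0.681, and titin LOC114358254 to 59.4, 61.8 and 120.0 from at most 4.67. Flightin (LOC114365033), a thick filament protein of flight muscle in Drosophila, had 724, 752 and 1216 FPKM in the adult and means of 359.6 in the 1st instar and 12.1 in the pupa, and was not called against all 5 stages. Of 92 genes of the respiratory chain and ATP synthase, 0 were higher than in all 5 stages by limma (0 at an unadjusted p under 0.05 and 0 by limma-voom) and 2 were lower, while 80 were higher than in the embryo (29.6% of all genes) and 55 than in the pupa (18.5%).

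Single enzyme genes were among those that rose most in the adult, while the shares of the enzyme families called higher ran from below to above that of all genes. Of 85 lipases tested, 6 were higher (7.06%, against 5.52% of all genes) and 1 lower (1.18%, against 3.1%). The lipase 3-like gene LOC114359148 had 1184, 765 and 176 FPKM in the adult and at most 0.289 elsewhere, and adult replicate 3 was the lowest. Spherulin-2A-like LOC114356597 had the same order of libraries, with 1464, 814 and 193 FPKM against at most 0.250. Of 71 exopeptidases, which cut amino acids from the ends of proteins, 9 were higher (12.7%) and 5 lower (7.04%). A vitellogenic carboxypeptidase-like gene (LOC114364544), named after an enzyme of the mosquito egg, had 256, 77.4 and 46.2 FPKM and at most 1.02 elsewhere. The carboxypeptidase genes LOC114362867 and LOC114362868 lie on 1 scaffold. The first had 58.04, 30.5 and 38.96 FPKM against at most 0.688, and the second had 43.9, 18.4 and 24.7 against at most 0.242. On another scaffold, cysteine proteinase-like LOC114350623 had 719, 355 and 524 FPKM and at most 0.961 in the other stages, and LOC114350660 had 493, 246 and 378 and at most 0.844. All of these adult values lay above those of the 15 other libraries, which the filter fixed wherever the others were all below 1 FPKM. Of 106 genes of sugar digestion and transport 3 were higher (2.83%), among them maltase A1-like LOC114354275, an enzyme that splits maltose, with 219, 508 and 605 FPKM against 0.419 to 12.6. The highest levels in the set were those of spodomicin-like LOC114351262, with 10642, 5542 and 10200.5 FPKM against at most 982. Nucleolar protein 58-like LOC114352618 had 2683, 2624 and 3470.4 FPKM and at most 1139 elsewhere, and its call was fragile. It was lost without any 1 of the adult, 1st instar or pupal libraries, of 3rd instar replicates 2 and 3 or of 5th instar replicates 2 and 3, with a largest adjusted p of 0.053 to 0.11 (limma). It was also lost with no filter, with a pseudocount of 0.1, with the replicate block and with values scaled by the fragments, where the smallest log2 fold change of LOC114352618 went from 1.75 to 1.04 (adjusted p = 0.21, limma).

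Neuropeptides and neurotransmitter receptors, cuticle proteins, P450 enzymes and fatty acid enzymes were called higher at shares close to the 5.52% of all genes. Those counts of higher genes are no result about the families. Of 76 genes for neuropeptides and neurotransmitter receptors 4 were higher (5.26%). The neuropeptide-like 3 gene LOC114357714 had 308, 598 and 244 FPKM in the adult and at most 4.60 elsewhere, and its namesake LOC114353428 had 95.3, 217 and 124 against at most 23.6. Of 92 cuticle proteins 4 were higher (4.35%): pupal cuticle protein C1B-like LOC114350274, in spite of its name, had 68.8, 128 and 46.3 FPKM in the adult and a mean of 1.36 in the pupa, and larval cuticle protein A2B-like LOC114351524 had 20.4, 28.2 and 13.8 against at most 1.93. Of 65 cytochrome P450 genes, which oxidise hormones, odorants and toxins, 3 were higher (4.62%) and 1 lower (1.54%, against 3.1% of all genes). The lower one, LOC114365282, lost its call under 18 alternatives, among them the replicate block and leaving out any 1 adult or pupal library, which takes the count to 0. P450 6j1-like LOC114361101 had 86.7, 68.7 and 105 FPKM against at most 3.10. Of 57 genes for fatty acid desaturases, elongases and reductases, the enzyme families that build moth pheromones and cuticle lipids, 4 were higher and 4 lower (7.02% each, against 5.52% and 3.1% of all genes). The 3 highest ranked were all acyl-CoA Delta(11) desaturase-like genes at low level, and LOC114360176 had 8.36, 11.4 and 12.5 FPKM against at most 1.67. Peritrophin-1-like LOC114352546, of the chitin lining of the gut, had 15.9, 181 and 269.8 FPKM and at most 3.56 elsewhere, again with replicate 1 far below the others. Of 78 cytosolic ribosomal proteins and 44 antimicrobial and recognition genes, 0 were called against all 5 stages by limma, 0 at an unadjusted p under 0.05 and 0 by limma-voom. The antimicrobial list, made by gene description, does not hold spodomicin-like LOC114351262, which was called higher. The 0 for that list covers only its members. Among all genes 5.52% were higher and 3.1% lower by limma. Against single stages 78 of 78 and 29 of 44 were higher than in the embryo (29.6% of all genes) and 27 of 44 were lower than in the pupa (21.4%).

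The genes lower in the adult were mostly expressed in larval tissues as well: 453 of the 456 reached a mean of 1 FPKM in at least 1 of the 4 larval tissues, 99.3%, against 83.4% of the genes in neither set and 41.3% of the higher genes. A gene called lower in the adult than in 3 larval stages is expressed in larvae by that call, so the share is in large part fixed by the rule. The MAP kinase-interacting serine/threonine-protein kinase 1 gene LOC114352478, which phosphorylates a translation initiation factor, had 4.77, 2.87 and 1.67 FPKM in the adult and 9.46 to 79.95 in the other libraries, with a smallest log2 fold change of -2.82 ± 0.57 (SE, against the 3rd instar). Translation initiation factor 5A (LOC114366723) had 36.3, 43.1 and 40.7 FPKM against 188 to 638, and initiation factor 5 (LOC114354021) had 3.49, 1.41 and 1.11 against 7.61 to 46.2. Tubulin beta-1 (LOC114363233), a subunit of microtubules, was among the most abundant of the set, at 115, 119 and 114 FPKM against 334 to 655. The groups did not overlap in any of these 4 genes.

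Non-muscle myosin heavy chain, the motor of cell shape and division, was represented by 2 gene models that were both lower: LOC114356463 had 4.02, 2.92 and 1.19 FPKM against 14.9 to 48.5, and LOC114356161 had 0.791, 0.421 and 0.784 against 3.86 to 17.4. Casein kinase I-like LOC114357263 had 1.00, 1.14 and 1.78 FPKM against 9.16 to 44.5. The coat protein Sec23A (LOC114350206), of vesicles that leave the endoplasmic reticulum, had 2.27, 0.599 and 0.973 FPKM against 9.23 to 30.6, and TER94 (LOC114357303), an ATPase that extracts proteins from that membrane, had 13.6, 5.44 and 4.34 against 24.2 to 181. In these genes too every adult library was below the other 15. The fatty acyl-CoA reductase wat-like gene (LOC114365055), named after a Drosophila gene needed to fill the tracheae with gas, had 1.31, 0.629 and 2.04 FPKM against 3.53 to 51.4. Of 11 clock genes, 1 was called against all 5 stages by limma (9.09%, against 3.1% of all genes called lower). Cryptochrome-1-like (LOC114354311), a light-sensitive clock protein, was lower at 0.562, 0.746 and 0.769 FPKM against 2.43 to 9.19, and its smallest log2 fold change went from -1.23 to -0.93 with values scaled by the fragments.

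**Figure D4:**
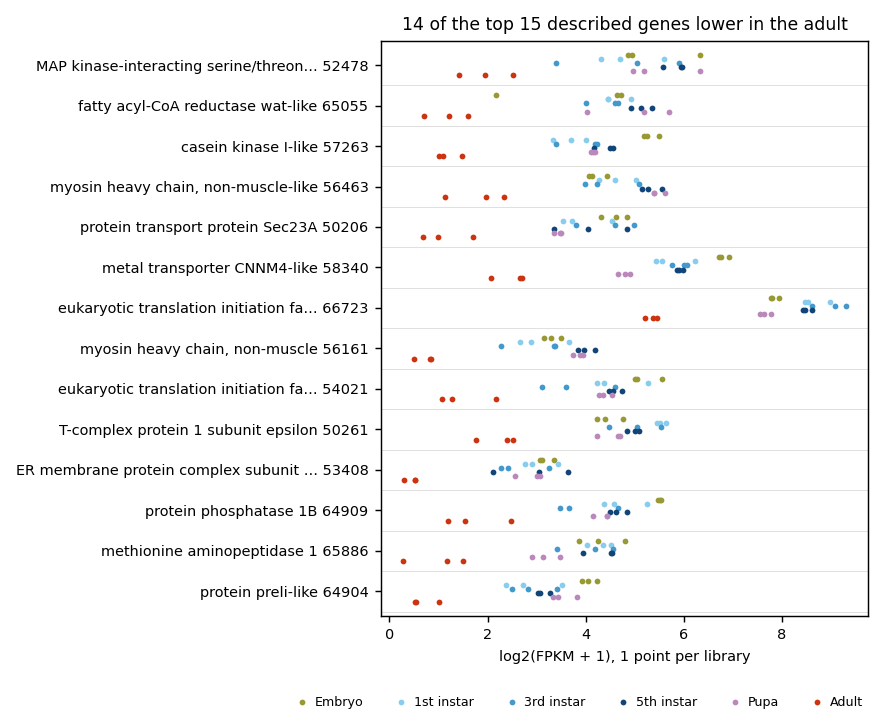
Log2(FPKM + 1) of 14 of the 15 described genes with the largest smallest fold change among those lower in the adult, 1 point per library, coloured by stage, with the last 5 digits of the gene identifier. The adult points lie left of all other points for each gene, by less than in the plot of the higher genes.

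In protein complexes whose subunits work together, some subunit genes were called lower in the adult and others were not. The complexes were chosen after their values were seen, starting from V-type proton ATPase subunit B, which the rule for named genes had picked. Subunit epsilon of the TCP1 chaperonin was also among the top 15 lower genes. Shares called lower in these complexes are therefore in part fixed by the choice. The V-type proton ATPase acidifies organelles and energises the gut, and its subunits A and B form the catalytic ring together. Subunit B (LOC114361397) had 7.75, 3.17 and 4.47 FPKM in the adult and 21.01 to 198 in the other libraries, while subunit A (LOC114349659) had 85.1, 90.3 and 113 in the adult and 28.1 to 467 elsewhere. The ratio of B to A was 0.0351 to 0.0911 in the 3 adult libraries, 0.178 to 0.748 in the 15 others and 0.239 to 1.00 in the 12 tissue libraries, so the adult range did not overlap either. The 21 kDa proteolipid subunit (LOC114358373) was lower as well, at 9.56, 7.20 and 5.80 FPKM against 25.9 to 140.1, so 2 of 19 subunit genes were called (10.5%, against 3.1% of all genes). Of the 17 not called, 1 also lay below all 15 other libraries in every adult library. In the TCP1 chaperonin, a folding chamber for actin and tubulin, 3 of 9 subunit genes were called lower (33.3%), and of the 6 not called, 3 also lay below all 15 other libraries. The called ones were epsilon, eta (LOC114364686) and the shorter eta-like model LOC114362476, so subunit eta may enter the count more than once. Subunit epsilon (LOC114350261) had 4.73, 4.28 and 2.42 FPKM against 17.9 to 49.01, with a smallest log2 fold change of -2.23 ± 0.25 (SE, against the embryo). Among those not called, the smallest log2 fold change was -0.77 for subunit alpha (LOC114359050), -0.53 for gamma (LOC114352389), -0.31 for theta (LOC114364152), -0.25 for beta (LOC114358084), -0.13 for delta (LOC114349820) and 0.10 for zeta (LOC114361892). Alpha had 17.3, 10.7 and 15.4 FPKM in the adult against 19.8 to 86.5, and zeta had 51.3, 64.3 and 47.04 against 40.7 to 166. Most of the TCP1 subunits not called thus lay in the same direction as the called ones, with smaller differences. In the coatomer of transport vesicles 2 of 12 were called lower (16.7%), gamma (LOC114353867) and beta (LOC114356827). Their namesakes gamma-2-like (LOC114365006) and beta-like (LOC114361370) were not called, with smallest log2 fold changes of -0.04 and -0.99. In the core of the proteasome 0 of 16 were called lower by limma, 0 at an unadjusted p under 0.05 and 0 by limma-voom. Of the 92 respiratory chain genes the 2 lower ones, 2.17% and a smaller share than that of all genes, were succinate dehydrogenase flavoprotein (LOC114352556), with 4.08, 1.40 and 1.17 FPKM against 6.98 to 56.4, and the 75 kDa subunit of complex I (LOC114353767), with 3.59, 2.23 and 2.52 against 6.20 to 53.6.

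**Figure D5:**
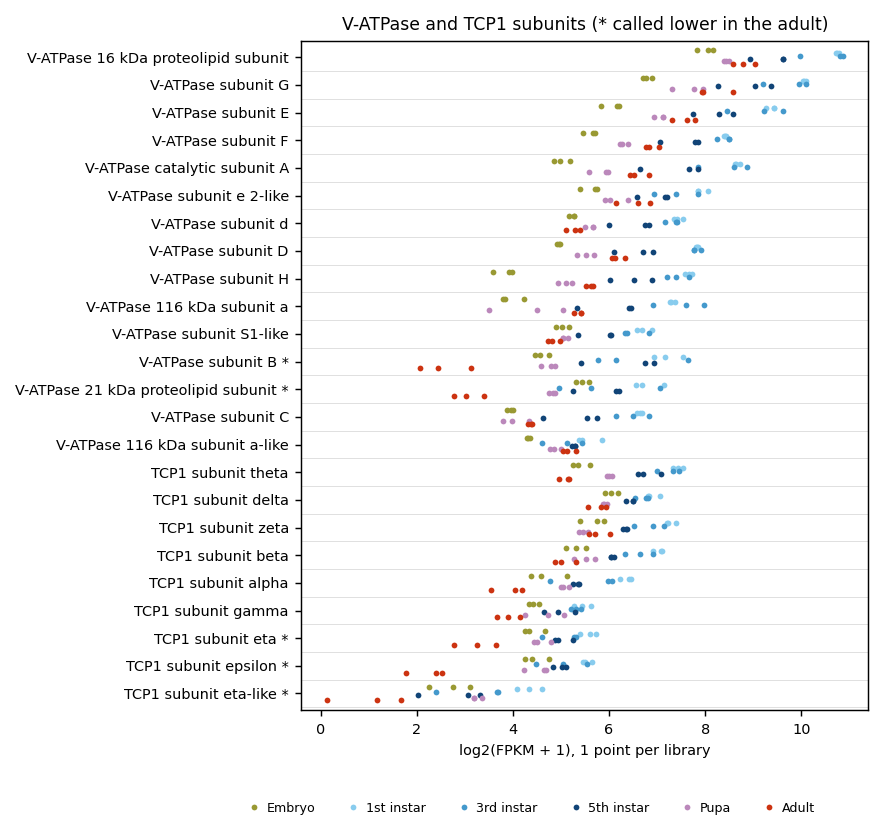
Log2(FPKM + 1) of V-type proton ATPase and TCP1 chaperonin subunit genes with a median above 5 FPKM in the other stages, 1 point per library, coloured by stage; an asterisk marks subunits called lower in the adult. The adult points of the marked subunits lie left of all others, and so do those of the unmarked TCP1 subunits alpha, gamma and theta, by less.

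The higher and lower sets also differed in gene length. The median length was 1014 bases in the higher set, 1927 in the lower set and 1749 in the genes in neither. Among genes with a mean above 5 FPKM over the 18 libraries, 15.6% of those up to 500 bases were higher in the adult and 1.7% of those over 3000 bases. The median log2 fold change against the embryo was 2.33 in the first class and -0.06 in the last, and against the pupa 0.56 and -0.14, while against the 3rd instar it was -0.03 in both. The part of gene length in the calls was not tested.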

How the data were processed

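RNA from pooled whole insects was sequenced in 3 libraries per stage. Per the study's methods and the labels, the authors aligned reads with HISAT2 2.0.5. The deposited table gives FPKM per gene model, normalized by the authors for gene length and library size, with a further scaling between libraries (0.558 to 2.42 for the 18 libraries, from the values). Values multiplied by gene length were whole multiples of 1 amount per library for 100% of the low values checked, within 0.02, and gave the fragments behind them, 12855190 to 17774377 a library. The study's methods name RSEM, whose estimated counts need not be whole, so the program behind the table is not known. The mouse build in the labels was taken as an error. Coordinates are those of the table.

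Log2(FPKM + 1) was fitted with limma 3.58.1 (limma-trend, R 4.3.3) over 18 libraries and 6 stage means, with 5 contrasts and Benjamini-Hochberg adjustment in each. Simulated data with a log2 change of 2 gave 95 of 100 raised and 68 of 100 lowered genes called, and 0 unchanged ones. There, each unchanged gene had 1 level in all 18 libraries and all genes shared 1 spread. The changed genes were not drawn from weakly expressed ones. The real stages and adult libraries differ more, so the 0 cannot give the rate of false calls in them. Lists were made by gene description. Described genes other than serine proteases were named by rank of their smallest fold change: the top 15 in each direction, the 5 most abundant of each set, and up to 3 a list and direction, with 2 uncharacterized genes a direction. Of the top 15 genes lower in the adult, 1 is not reported here. Genes outside this rule were chosen after their values were seen, to show a family. The members and lists were chosen with earlier results of these data known. Replicate numbers, from the titles, pair no samples. The alternatives are given in the closing section.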

Additional observations from a re-analysis of the deposited data

Results flagged for a closer look

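In the larval tissue libraries, which entered no comparison above, 2 of the named genes higher in the adult than in all whole-insect stages were at a higher mean than in the adult. The juvenile hormone acid O-methyltransferase gene LOC114365517, which makes juvenile hormone or its precursor, had a mean of 476 FPKM in the silk gland (402, 642 and 384) and 7.36, 6.09 and 7.85 in the adult. Its call in the adult was lost without 3rd instar replicate 1, where the smallest log2 fold change was 0.66 (adjusted p = 0.059, limma). The dopamine N-acetyltransferase-like gene LOC114362545, of cuticle tanning, had a mean of 123 FPKM in the silk gland (99.2, 135 and 136) and 83.1, 90.3 and 55.7 in the adult. Over the whole set of 813 higher genes, 32 had a higher mean in at least 1 larval tissue than in the adult, and for 15 of these the tissue with the highest mean was the silk gland. The difference between the tissues and the adult was not tested.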

How the results depend on the processing

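The counts of 813 genes higher and 456 lower in the adult than in all 5 stages were recomputed under 7 alternatives chosen at the start and 2 chosen after seeing the data, beside leaving out each library. The higher count was 594 to 898 under these 9 and stayed within 1.5 times. The lower count rose to 1129 with a pseudocount of 0.1, of which 456 were in the original set, and to 949 with limma-voom on the recovered fragments, of which 438 were. In those fits the higher count was 825 and 854, so more genes were lower than higher, the reverse of the main fit. A stricter filter of 5 FPKM, which tests 9877 genes, left 1987 genes lower than in the embryo and 2088 lower than in the pupa. Scaling by the recovered fragments, chosen after seeing the data, gave 5754 lower than in the embryo, and 1484 higher and 5668 lower than in the pupa. Leaving out 1 library at a time gave 790 to 853 higher and 371 to 512 lower genes. The replicate block, for numbers that do not pair the samples (correlations of same-numbered deviations from -0.091 to 0.142), gave 815 and 453. Of 100 named genes, 78 were called under every alternative that tested them and 83 in every fit that left out a library, and 0 reversed. The simulated lowered genes were called less often than the raised ones. On this scale a fall cannot exceed log2(FPKM + 1) of the gene in the other stage. The cause of the changes was not tested.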
